A study of Mus musculus with 8 samples.

Results

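Cytoplasmic ribosomal protein genes encode the proteins of the ribosome that works outside the mitochondrion. They were chosen by name alone: every row named Rpl or Rps with a number and at most 1 further letter before an optional number, together with Rplp0, Rplp1, Rplp2 and Rpsa. This rule took 89 of the 35896 rows, 53 of the large subunit and 36 of the small subunit, and used no measured value. The annotation (GENCODE M21, build GRCm38) lists 6 of the 89 as pseudogenes: Rps3a2, Rps3a3, Rps4l, Rps12l1, Rpl6l and Rpl32l. Another 6 are paralogs that have diverged from the standard gene (Rpl3l, Rpl10l, Rpl39l, Rpl22l1, Rpl7l1 and Rps27l). The remaining 77 are the canonical genes, 46 large and 31 small, and all were detected in every library. A filter on low counts left 85 members for testing, 50 large and 35 small. The 4 members that did not pass were Rpl10l, Rpl32l, Rpl3l and Rps12l1, each with 3 counts or fewer in each group.

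The tissue was the molar tooth germ of the mouse embryo, the bud of oral epithelium and condensed neural crest mesenchyme that becomes a molar. All germs carried BRE-GFP, a fluorescent reporter of BMP-Smad signalling, and were grown in culture with the additive for 1 day. At the embryonic stage E12.5 they received the solvent DMSO, SB431542, which blocks the type I receptors of TGF-beta and activin, or SIS3, an inhibitor of Smad3. Germs of E13.5 received DMSO. How many germs went into a library, and at what dose each inhibitor was used, is not given in the labels.

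The ribosome is assembled in the nucleolus from ribosomal RNA and one copy of most ribosomal proteins. The small subunit reads the messenger RNA and the large subunit joins amino acids. Ribosomal protein messages are short and abundant, and many begin with a terminal oligopyrimidine (TOP) tract, a C followed by a run of C and T bases at the 5′ end, through which growth signals acting on mTOR and Larp1 set how well the messages are translated. Translation was not measured here. Most ribosomal protein genes have also left many processed pseudogenes in the mouse genome, which are intronless copies of the spliced message.

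The tract is printed for 7 of the members where one was found at an annotated start, and in many members none was found. Each line gives the 15 bases before and the 15 bases from an annotated start in RefSeq (build GRCm38.p6), on the strand of the gene, with the tract in capitals. Rpl27a, Rpl15 and Rpl35 have the longest tracts, and the other 4 are members described in the comparisons. The Rpl27a tract of 20 bases runs past the end of the printed line. Rps21 has a further annotated start, in the window chr2:180257434-180257463, where no tract was found.
Rpl27a, chr7:109519180-109519209, plus strand: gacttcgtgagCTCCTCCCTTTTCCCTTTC
Rpl15, chr14:18270972-18271001, minus strand: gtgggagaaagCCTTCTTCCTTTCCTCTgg
Rpl35, chr2:39005117-39005146, minus strand: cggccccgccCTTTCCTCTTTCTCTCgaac
Rps6, chr4:86857353-86857382, minus strand: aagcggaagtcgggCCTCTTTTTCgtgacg
Rplp2, chr7:141447636-141447665, plus strand: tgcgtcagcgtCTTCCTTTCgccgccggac
Rps21, chr2:180257364-180257393, plus strand: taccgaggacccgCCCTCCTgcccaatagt
Rps23, chr13:90923107-90923136, plus strand: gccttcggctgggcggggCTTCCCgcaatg
A tract was counted where a C within 5 bases of the annotated start, on the gene's own strand, was followed by at least 4 further C or T bases. It was found in 30 of the 64 members that the promoter table holds (46.9%), against 21.2% of all 27025 genes in the table. The shares were 45.0% for 40 large subunit genes and 50% for 24 small subunit genes. Among 69 genes for proteins of the mitochondrial ribosome, which are also encoded in the nucleus, the share was 24.6%. Of 17 genes outside the name rule that are known for TOP messages, 9 had a match (52.9%). A match describes these letters at the annotated start and does not show that the message begins there. Nor does a miss show that the message lacks a tract.

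The deposited table holds 8 columns, 2 for each of the 4 groups. Over the members, paired columns differed by 1.59 (E12.5 DMSO), 1.28 (SB431542) and 1.66 times (E13.5) the binomial variance that a random split of one set of reads would give, and by 58.3 times with SIS3. Each of those 3 pairs was therefore summed and counted as 1 sample, which leaves 5 libraries of 5995709 to 30975010 counts and only SIS3 with replicates. Both SIS3 libraries were made with a TruSeq kit and every other library with a SMARTer low-input kit, so SIS3 and the kit cannot be told apart. In the 3 other groups the spread is borrowed from the SIS3 pair and from other genes, so each p-value measures only that spread, which may be technical. All 3 comparisons use the same E12.5 DMSO library. The 6 markers of dental mesenchyme (Msx1, Pax9, Barx1, Lhx6, Lhx8 and Prrx1) were detected in every library and summed to 3073 CPM (counts scaled to a library total of 1000000) in E12.5 DMSO, 3188 CPM with SB431542, 2636 and 2343 CPM with SIS3 and 2085 CPM at E13.5. Those of dental epithelium summed to 100.5, 32.4, 43.2, 173.6 and 158.4 CPM in the same order, with Shh at 0 in SIS3 library 1 and at E13.5.

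The share of all counts that fell in the 89 members was 3.97% in E12.5 DMSO, 3.68% with SB431542, 3.98% and 4.40% in the SIS3 libraries and 2.62% at E13.5. Exact binomial intervals (95%, counting error only) were 3.96% to 3.98% in E12.5 DMSO, 3.67% to 3.69% with SB431542 and 2.61% to 2.63% at E13.5. The E13.5 share was 0.660 times that of E12.5 DMSO and the lowest of the 5 libraries, and the 2 SIS3 libraries lay at and above E12.5 DMSO. In a bulk sample, fewer cells of a type and less RNA per cell cannot be told apart. The E13.5 library also differed in what else was counted. Olfactory and vomeronasal receptor genes took 2.01% of its counts against 0.537% in E12.5 DMSO, and Lars2 took 3.41% against 1.27%. With the mitochondrially encoded genes, Lars2, receptor and predicted genes and pseudogenes left out of the total, the share of the members was 3.05% at E13.5 and 4.23% in E12.5 DMSO.

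**Figure D1:**
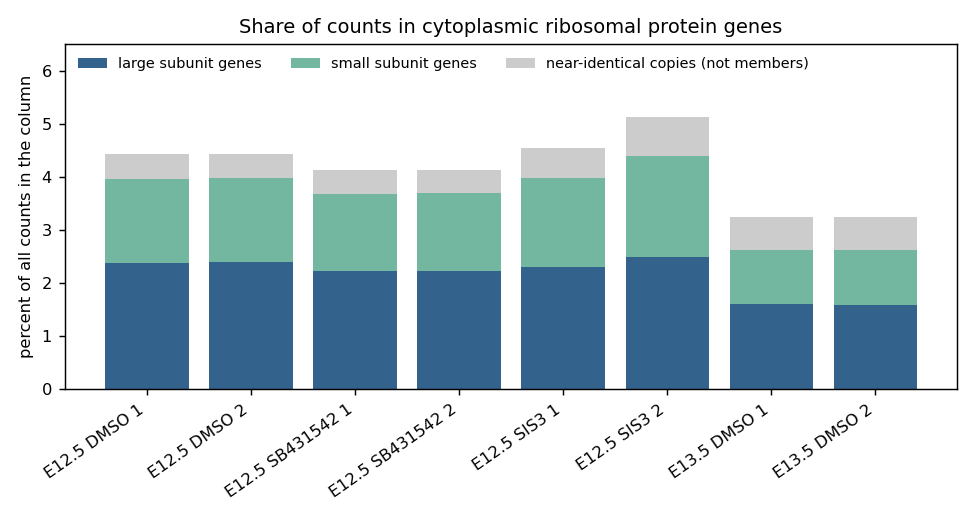
Share of all counts (percent, y axis) in large subunit genes, small subunit genes and near-identical copies that are not members, stacked for each of the 8 deposited columns. The 2 E13.5 columns are the lowest, at 2.63% and 2.61% for the members, and the paired columns of every group but SIS3 are alike.

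The large subunit genes together had 1.51 times the counts of the small subunit genes in E12.5 DMSO, 1.53 times with SB431542 and 1.56 times at E13.5. In the SIS3 libraries the ratio was 1.36 and 1.30. Both SIS3 libraries thus lay below the 3 SMARTer libraries, a split that is also that of the kit. With near-identical copies added to each subunit the ratios were 1.499, 1.51, 1.44, 1.40 and 1.58 in the same order.

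The canonical members differed in level by more than an order of magnitude within a library. In E12.5 DMSO the median was 414.8 CPM, the lowest Rpl12 at 50.6 CPM and the highest Rplp0, the core protein of the ribosomal stalk, at 1672 CPM. Of the counts of Rpl12 and its near-identical copies together, 12.8% were assigned to Rpl12 there, and the copy Gm10275 was at 344.6 CPM. Rplp0 was followed by Rpsa, a small subunit protein that also serves as a laminin receptor, at 1611 CPM. Divided by transcript length, the highest levels in E12.5 DMSO were those of Rplp1 (1848 CPM per kb), Rpl23a (1835 CPM per kb) and Rplp2 (1807 CPM per kb), and the median was 662.7 CPM per kb. The same scale gave 331.2 CPM per kb as the median at E13.5, where Rplp2 was highest at 2552 CPM per kb. Counts of members share reads with other genes to different degrees: between 1.05% and 94.1% of the 31-base words of a canonical member also occur in another annotated gene.

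Near-identical copies of many members also held counts. Whether these counts came from transcripts of the copies or of the members was not tested. A row outside the 89 was called a copy where at least 50% of its 31-base words occur in a member. There were 295 such rows, 284 annotated as pseudogenes, for 70 of the members, and 273 had counts. Copies held 10.3% of the counts of members and copies together in E12.5 DMSO, 10.9% with SB431542, 12.2% and 14.4% in the SIS3 libraries and 19.3% at E13.5. The portion of a family's counts assigned to the member moved by 25 percentage points or more between libraries in 20 families, and by 50 or more in 6.

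Rps27, a zinc finger protein of the small subunit, shows this most fully. The gene lies at chr3:90212522-90213651 on the minus strand (GRCm38). Rps27rt, an intronless copy that the annotation calls protein coding, lies at chr9:114982366-114982739 on the minus strand. Their coding sequences of 252 bases have 0 mismatches, so only bases outside the coding part can separate their reads. The sequence they share is printed once, and that of the paralog Rps27l is printed with each of its 60 mismatches to Rps27 in capitals.
Rps27 and Rps27rt: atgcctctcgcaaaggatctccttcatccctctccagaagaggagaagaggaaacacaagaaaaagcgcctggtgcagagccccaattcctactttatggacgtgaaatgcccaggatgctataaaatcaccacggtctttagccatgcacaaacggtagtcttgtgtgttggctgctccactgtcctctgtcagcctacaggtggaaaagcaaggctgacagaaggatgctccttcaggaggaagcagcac
Rps27l: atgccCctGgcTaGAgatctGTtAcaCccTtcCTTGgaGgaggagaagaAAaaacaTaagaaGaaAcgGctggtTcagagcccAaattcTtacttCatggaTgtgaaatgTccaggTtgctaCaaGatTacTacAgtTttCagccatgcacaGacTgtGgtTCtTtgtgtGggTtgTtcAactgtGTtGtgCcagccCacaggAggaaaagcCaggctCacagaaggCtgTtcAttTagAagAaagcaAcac
Rps27 was counted at 333.4 CPM in E12.5 DMSO, 289.0 CPM with SB431542, 4.67 and 10.4 CPM in the SIS3 libraries and 167.3 CPM at E13.5. Rps27rt was at 0 in E12.5 DMSO and at E13.5, at 0.107 CPM with SB431542, and at 361.4 and 423.7 CPM in the SIS3 libraries. Nearly all counts of the pair thus sat on Rps27 in the SMARTer libraries and on Rps27rt in the TruSeq libraries. The sum of the family was 333.4, 289.2, 366.1, 434.1 and 167.3 CPM in the same order. Rps27l, whose longest stretch identical to Rps27 is 11 bases, was at 23.3, 23.9, 35.2, 38.7 and 16.2 CPM and has no copy in the table.

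Rpl10, which helps to shape the site where peptide bonds form and lies at chrX:74270812-74273135, behaved in part like Rps27. Its copy Rpl10-ps3, at chr9:50344201-50344968, is identical to it over all 642 coding bases, of which the first 150 are printed.
Rpl10 and Rpl10-ps3: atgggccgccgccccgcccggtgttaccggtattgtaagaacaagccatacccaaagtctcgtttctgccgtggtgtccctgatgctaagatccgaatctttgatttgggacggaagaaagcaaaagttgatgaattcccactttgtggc
Rpl10 held 99.5% of the counts of its family in E12.5 DMSO, 13.6% and 23.9% in the SIS3 libraries and 48.2% at E13.5. The E13.5 library came from the same kit as E12.5 DMSO, so there the split differed without a difference in kit. Rps6, the small subunit protein that S6 kinase phosphorylates, held 99.8% of its family in E12.5 DMSO and 46.5% at E13.5, where Rps6-ps4 took 388.3 CPM after 0 in each of the other 4 libraries. Rpl36a held 99.9% in E12.5 DMSO and 45.4% at E13.5. Rpl3 and Rps12 make up the 6.

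**Figure D2:**
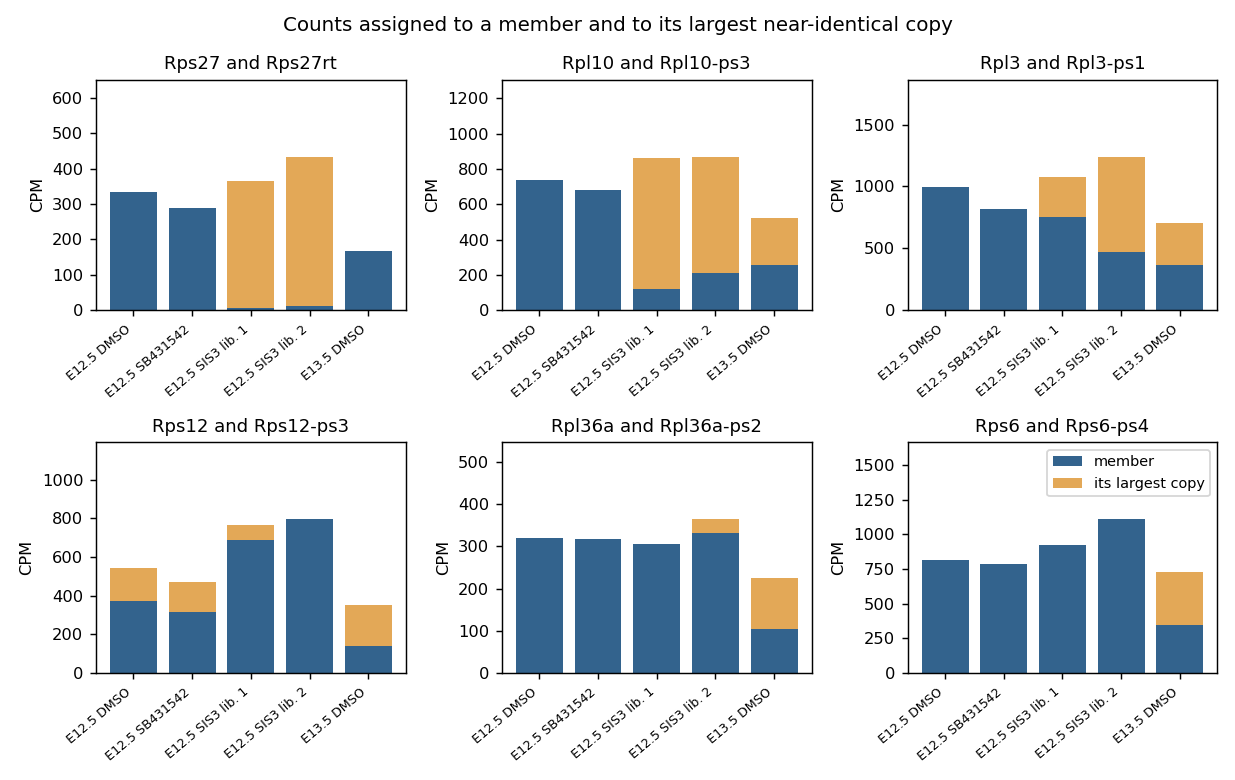
CPM of a member (blue) and of its largest near-identical copy (orange), stacked, in the 5 libraries for the 6 families whose split moved by 50 percentage points or more. For Rps27 and Rpl10 the bars of the SIS3 libraries are mostly copy although the stacked heights are close to E12.5 DMSO, and for Rps6 and Rpl36a the copy is largest at E13.5.

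For SB431542 the comparison asks whether blocking the TGF-beta and activin receptors for 1 day changed ribosomal protein messages. No member was called. The median log2 fold change of the 85 tested members was -0.13, with -0.09 for the large subunit and -0.19 for the small subunit, beside 0.00 over all 19022 genes tested. Of the 85, 73 were below 0 on the log2 scale, where 47.4% of all genes tested were. edgeR with Benjamini-Hochberg adjustment called 0 members higher and 0 lower (0.00% of all genes in each direction), and 0 members had an unadjusted p under 0.05 (0.568% of all genes higher and 0.668% lower). DESeq2 also called 0 members (0.00% of all genes higher and 0.0315% lower). The interval of a single member was wide, with a median half-width of 0.70 on the log2 scale, so differences of the size seen were not detectable for a single gene with 1 library against 1.

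The 8 members with the lowest values lay between -0.47 and -0.33. They were Rps18 (182.2 against 136.9 CPM, DMSO first, log2 fold change -0.47), Rps2 (-0.46), Rplp1 (-0.42), Rps23 (-0.39), Rplp0 (-0.37), Rps21 (-0.36), Rpl3 (-0.35) and Rpsa (-0.33). Rps18 and Rps2 are small subunit proteins near the path of the messenger and transfer RNAs, with 3 and 17 copies in the table. With copies summed, the lowest member was at -0.42 and the median at -0.10. The 8 highest were Rpl39l and Rpl6l, which had few counts, and Rpl7l1 (0.15), Rps15 (0.07), Rpl17 (0.06), Rpl23 (0.06), Rps15a (0.05) and Rps10 (0.05). Rpl39l had 1 count in DMSO and 3 with SB431542, which allows no fold.

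For SIS3 against DMSO at E12.5 the members lay on both sides of 0, and the median was lower for the large than for the small subunit. The median log2 fold change was 0.15 over 85 members, -0.05 over 50 large and 0.26 over 35 small subunit genes, beside 0.00 over all genes tested. The median of the large minus that of the small subunit was -0.31, and -0.19 with copies summed. The 2 SIS3 libraries taken singly had differences between the subunits of -0.20 and -0.40 and medians of 0.09 and 0.14 against DMSO. Of the 85 members, 64 were higher in library 2 than in library 1, where 45.3% of all genes tested were. Each SIS3 value carries the inhibitor and the kit together. edgeR called 0 members higher (0.794% of all genes tested) and 5 lower (3.03% of all genes tested). In edgeR 14 members had an unadjusted p under 0.05 in the higher direction (5.82% of all genes) and 18 in the lower (11% of all genes). DESeq2 called 2 higher (1.22% of all genes) and 5 lower (2.35% of all genes). With trends on length and GC content removed the median of the large subunit was 0.22 and that of the small subunit 0.48.

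The 5 members called lower were Rps27, Rps3a3, Rpl10, Rps7 and Rpl29. Their number was 9 without a filter on low counts (3.92% of all genes then tested) and 2 with a mean of at least 5 CPM required (0.859%). Rps27 had a log2 fold change of -5.51 (SE 0.41, edgeR adjusted p = 0.000127), and Rpl10 of -2.26 (SE 0.33, edgeR adjusted p = 0.0042). With their copies summed both turned positive, to 0.19 (adjusted p = 0.81) for Rps27 and 0.16 (adjusted p = 0.84) for Rpl10. Rps7, a small subunit protein that can bind Mdm2, was at 788.1 CPM in DMSO and 342.4 and 379.3 CPM with SIS3 (-1.20, SE 0.27, edgeR adjusted p = 0.0235). The value of its family was -0.53 (adjusted p = 0.34), as Rps7-ps3 was at 98.9 CPM in DMSO and at 272.2 and 306.8 CPM with SIS3. Rpl29, a small basic protein of the large subunit, was at 490.0 CPM in DMSO and 254.0 and 211.6 CPM with SIS3 (-1.14, SE 0.28, edgeR adjusted p = 0.0375). With its 11 copies summed the value was -0.95 (adjusted p = 0.069). Rps3a3, an annotated pseudogene at chr13:108670603-108671397, had 14.8 CPM in DMSO and 0.667 and 0.106 CPM (4 and 1 counts) with SIS3. Its log2 fold change of -5.50 (SE 0.66, edgeR adjusted p = 0.000896) was the only call left once copies were summed, when 2.93% of all rows were called lower.

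No member was called higher with SIS3. The 8 highest were Rpl9 (285.9 CPM in DMSO, 607.6 and 689.0 CPM with SIS3, log2 fold change 1.11, SE 0.29, edgeR adjusted p = 0.054), Rps25 (1.00), Rps12 (0.91), Rpl28 (0.90), Rpl35a (0.88), Rpl17 (0.82), Rpl39 (0.80) and Rps29 (0.78). Rps25 serves initiation at internal entry sites. It held 99.4% of its family in DMSO and 99.9% in both SIS3 libraries, so its value with copies summed, also 1.00, could hardly differ. Rpl9 stood at 0.75 with copies summed. It held 78.0% of its family in DMSO and 100% in both SIS3 libraries to 3 digits. Both SIS3 libraries were above DMSO in CPM for 45 of the 85 members (36.4% of all genes tested) and below it for 32 (37.1% of all genes tested). By subunit, 23 large and 22 small subunit genes were above in both, and 23 large and 9 small were below in both.

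The ribosomal stalk, which recruits the elongation factors, is built from Rplp0 and dimers of Rplp1 and Rplp2. These genes have 0 to 2 copies each in the table. Rplp1 was at 922.1 CPM in DMSO, 717.3 CPM with SB431542, 465.2 and 523.1 CPM with SIS3 and 926.0 CPM at E13.5. Rplp2 was at 760.7, 720.2, 389.3, 472.0 and 1074 CPM in the same order, and Rplp0 at 1672, 1338, 1116, 1219 and 846.7 CPM. All 3 were lower in both SIS3 libraries than in DMSO, with log2 fold changes of -0.97 for Rplp1 (edgeR adjusted p = 0.060), -0.89 for Rplp2 (adjusted p = 0.092) and -0.59 for Rplp0 (adjusted p = 0.27), none of which passed. At E13.5 they parted: Rplp2 had a log2 fold change of 0.53 and Rplp1 of 0.04, while Rplp0 had -0.95 (edgeR adjusted p = 0.34, 0.96 and 0.088).

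At E13.5 the members were lower than at E12.5 as a group. The median log2 fold change between the DMSO libraries was -0.67 over 85 members, a level 1.59-fold lower, with -0.64 for the large and -0.68 for the small subunit, beside 0.00 over all genes tested. Of the 85, 77 were below 0, where 50% of all genes tested were. edgeR called 12 members lower, 5 large and 7 small (1.17% of all genes tested were called lower), and 0 higher (4.06% of all genes tested). In edgeR 33 members had an unadjusted p under 0.05 in the lower direction (8.88% of all genes) and 2 in the higher (15.4% of all genes), and DESeq2 called 12 lower (0.71% of all genes) and 0 higher (2.28% of all genes). The edgeR count of 12 was 21 without a filter on low counts (2.19% of all genes then tested), 3 with a mean of at least 5 CPM required (0.275%) and 7 without column 2 of E13.5 (0.408%). Rps21 and Rps28 were called in all 17 alternatives that give a test, Rpl22l1 and Rpl37a in 6 of them and Rps6 in 8. With copies summed the median was -0.51, 74 of 85 were below 0 (50% of all rows), and 5 members were called lower (1.14% of all rows).

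**Figure D3:**
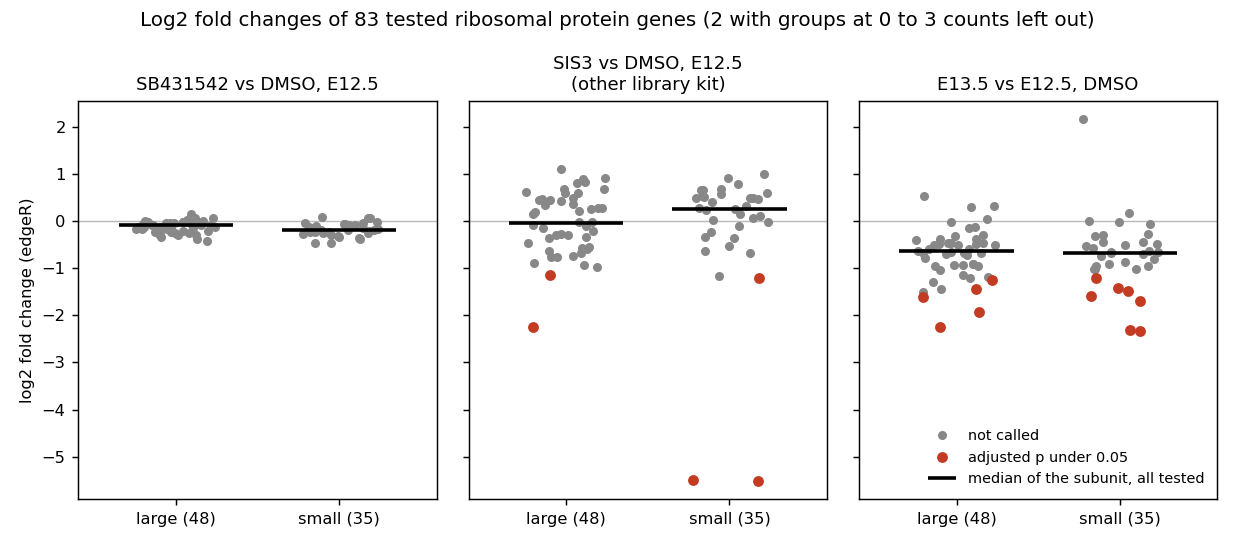
Log2 fold changes (edgeR, y axis) of tested members by subunit in the 3 comparisons, with called members in red and the subunit medians as bars; Rpl39l and Rpl6l, which have groups at 0 to 3 counts, are not drawn. The SB431542 points lie close to 0, the SIS3 points spread to both sides with Rps27 and Rps3a3 near -5.5, and most E13.5 points lie below 0.

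Rps21, a small protein of the small subunit at chr2:180257377-180258445, had the lowest value. It was counted at 354.3 and 346.0 CPM in the 2 E12.5 DMSO columns, 281.9 and 283.3 CPM with SB431542, 211.8 and 250.2 CPM with SIS3 and 65.5 and 70.1 CPM at E13.5. Every E12.5 column was thus at least 3 times every E13.5 column. The log2 fold change was -2.34 (SE 0.35, edgeR adjusted p = 0.00228), and Rps21 has no copy in the table. Rps28, near the messenger RNA exit, was at 305.4 CPM in E12.5 DMSO and 60.5 CPM at E13.5 (-2.31, SE 0.35, edgeR adjusted p = 0.00235). With its copies summed the value was -1.44 (adjusted p = 0.027). Rps29, a zinc-binding small subunit protein, was at 194.2 and 67.8 CPM (-1.49, SE 0.34, edgeR adjusted p = 0.0256). It was at 327.6 and 376.5 CPM in the SIS3 libraries, so the E13.5 level was the lowest of the 5. Its 2 copies had 0 counts in every column, so summing them could not change the value of -1.49.

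The other members called lower at E13.5 were of 2 kinds. Rpl22l1 and Rpl37a kept nearly the same values when copies were summed. Rpl22l1, the paralog of Rpl22, was at 78.8 CPM in E12.5 DMSO, 66.5 CPM with SB431542, 54.9 and 76.5 CPM with SIS3 and 28.4 CPM at E13.5 (-1.44, edgeR adjusted p = 0.048, and -1.47 with copies summed, adjusted p = 0.046). Rpl22 itself was at 452.4 and 277.6 CPM in the DMSO libraries (-0.67, not called). Rpl37a had -1.26 (adjusted p = 0.048) and -1.21 with copies summed (adjusted p = 0.051). Rpl27, Rpl34, Rps23, Rpl36a, Rps13, Rps12 and Rps6 lost their call with copies summed. Their values of -2.25, -1.93, -1.70, -1.60, -1.60, -1.42 and -1.22 became -1.12, -1.17, -0.74, -0.46, -1.20, -0.62 and -0.12 in the same order. Rpl37, which has no copy in the table, was at 296.2 and 125.6 CPM (-1.21). Of these 2 fits, it passed with copies summed (edgeR adjusted p = 0.049) and not as deposited (edgeR adjusted p = 0.052). Rps21, Rps28, Rps29 and Rpl22l1 were called in both fits, though copies added no counts to Rps21 and Rps29.

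**Figure D4:**
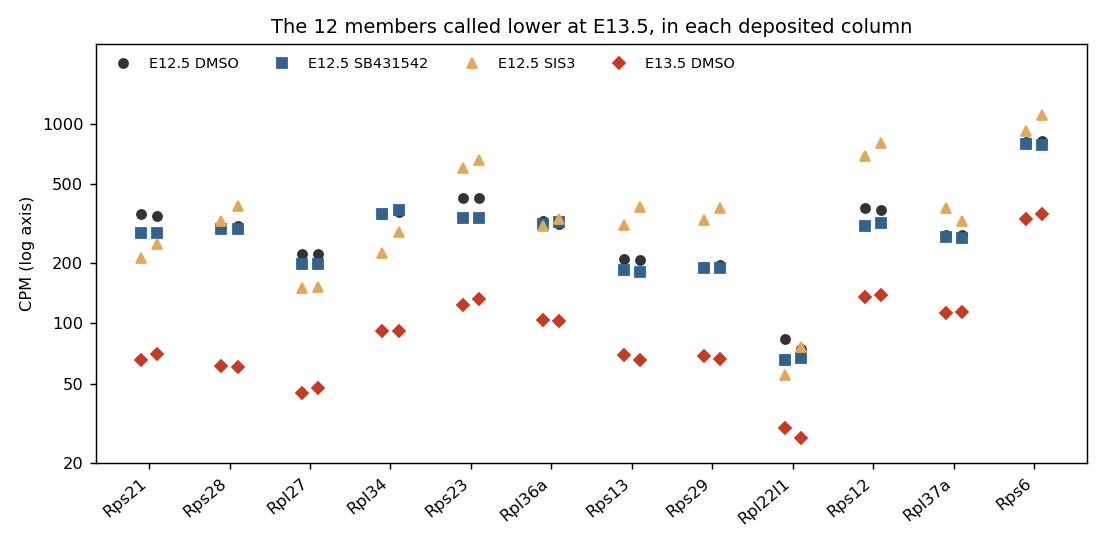
CPM (log axis) of the 12 members called lower at E13.5 in each of the 8 deposited columns. Both E13.5 columns lie below all 6 E12.5 columns for every one of the 12 genes, while the order of the E12.5 groups differs from gene to gene.

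A few members were not lower at E13.5. Besides Rplp2 and Rplp1, Rpl23 (429.7 against 521.5 CPM, log2 fold change 0.31), Rpl7l1 (0.30) and Rps19 (443.6 against 487.9 CPM, 0.17) were above 0. Rpl23 sits on the face of the large subunit that meets the small subunit, and Rps19 is needed to mature the small subunit. Rpl13a (-0.02) and Rpsa (-0.03) were at nearly the same level in both libraries. Rps3a3 was counted at 14.8 CPM in E12.5 DMSO and 64.8 CPM at E13.5 (2.17, SE 0.60, edgeR adjusted p = 0.059), and as a pseudogene it shares sequence with the Rps3a family. Rpl39l, a paralog of Rpl39 best known from male germ cells, had 1 count in E12.5 DMSO, 3 with SB431542, 0 in both SIS3 libraries and 34 at E13.5. It passed the filter through E13.5 alone. The E13.5 ratio was 60.1-fold with an exact counting interval of 10.1 to 2443 (95%), and edgeR gave an adjusted p of 0.12. Rpl6l had 33 counts in E12.5 DMSO and 0 in both SIS3 libraries, where it was at least 5.48-fold lower against a floor of 3 counts over the group. With these genes at their bound or ratio the medians stayed 0.15 for SIS3 and -0.67 for E13.5.

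The members with the shortest coding sequences had the lowest values at E13.5. The median log2 fold change was -0.95 over the 25 canonical members with up to 399 coding bases, -0.67 over the middle 26 and -0.52 over the 26 with at least 576. The correlation with the log of coding length across the 77 canonical members, which share libraries, depth and copies, was 0.29 (Pearson) and 0.36 (Spearman), given as a description. Copies summed, the same medians were -0.73, -0.50 and -0.46. Of the 11 canonical members called, 7 were in the shortest class, and their median coding length was 351 bases against 477 for the others. Other protein-coding genes with a mean of at least 50 CPM had medians of -0.41 with up to 400 coding bases (143 genes), -0.28 from 400 to 600 (225 genes) and -0.21 from 600 to 1300 (1126 genes). The members of these 3 classes stood at -0.95, -0.65 and -0.52. The medians of other genes thus had the same order, and in each class the median of the members was below that of the other genes. With trends on length and GC content removed from each library the median of the members was -0.42, and 5 were called lower (0.373% of all genes tested). For the canonical members the medians from the shortest to the longest class were then -0.74, -0.42 and -0.32. Their correlations with coding length were then 0.30 (Pearson) and 0.36 (Spearman). With SB431542 and SIS3 the correlations with coding length were between -0.15 and 0.01.

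**Figure D5:**
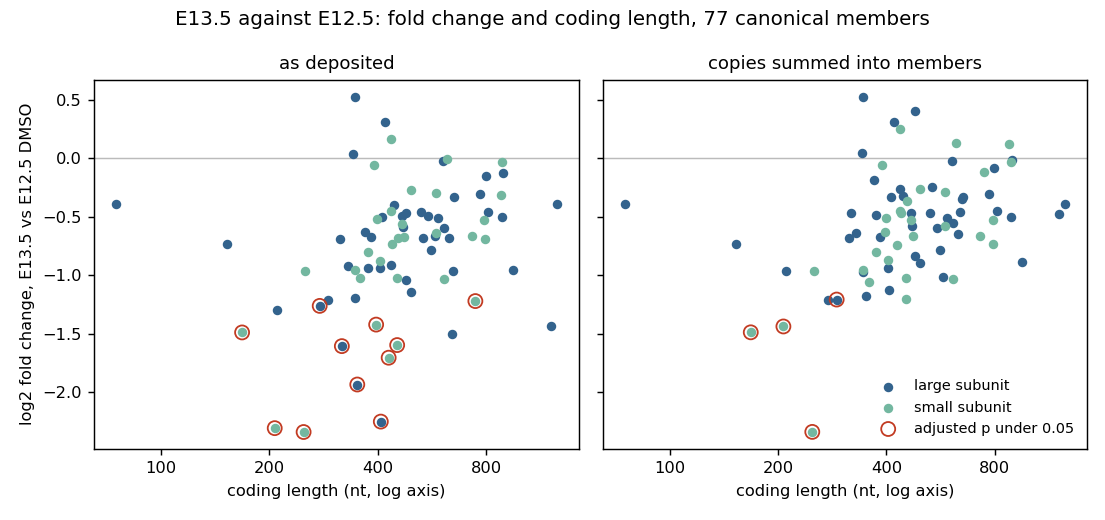
Log2 fold change at E13.5 against E12.5 DMSO (y axis) and coding length (bases, log axis) of the 77 canonical members, as deposited and with copies summed, with called members ringed. The lowest points lie at short lengths in both panels, and with copies summed the 4 rings are Rps21, Rps28, Rps29 and Rpl37, the last of which is not ringed as deposited.

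Members with and without a TOP tract found at an annotated start had close medians. At E13.5 the median log2 fold change was -0.63 over 27 canonical members with a tract and -0.68 over 30 without, and 4 and 6 of them were called lower. With SIS3 the medians were 0.26 and 0.15, and with SB431542 both were -0.13.

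The 5 lists of other genes of translation and ribosome production had medians between -0.20 and -0.41 at E13.5. Of 22 tested genes outside the name rule that are known for TOP messages, 1 was called lower at E13.5, Eif2s3x, which carries the initiator transfer RNA to the ribosome (202.2 against 78.3 CPM, -1.34, edgeR adjusted p = 0.0385), and their median was -0.27. They include Fau, which encodes a ribosomal protein fused to a ubiquitin-like sequence, and Rack1, a small subunit protein. Fau had a log2 fold change of 0.09 and Rack1 of -0.58, neither called. Of 51 ribosome biogenesis genes 0 were called in either direction at E13.5 (median -0.34), and of 34 initiation and elongation genes 0 (median -0.41). At an unadjusted p under 0.05 edgeR had 2 biogenesis genes higher and 6 lower, and 1 initiation or elongation gene higher and 4 lower. Over all genes tested the shares at that threshold were 15.4% higher and 8.88% lower. Of 78 genes of the mitochondrial ribosome 1 was called higher, Mrpl48 (2.17), and 1 lower, Mrps16 (-2.27), with a median of -0.38. The 14 genes that control or sense ribosome production, among them Myc, Mtor and Trp53, had a median of -0.20 with 0 called by edgeR, 1 of them lower at an unadjusted p under 0.05. DESeq2 called 0 genes of these last lists of 51, 34 and 14.

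With SB431542 edgeR and DESeq2 called 0 genes of these lists and 0 had an unadjusted p under 0.05 in edgeR. The medians were -0.12 (TOP messages), -0.16 (biogenesis), -0.13 (mitochondrial ribosome), -0.14 (initiation and elongation) and -0.02 (control). The median of the members, -0.13, lay within this range. With SIS3, Vim, which encodes the mesenchymal filament protein vimentin, was called lower among the TOP messages (-1.13) and Gnl3, the nucleolar protein nucleostemin, higher among the biogenesis genes (1.27). edgeR called 0 genes of the other 3 lists with SIS3. At an unadjusted p under 0.05 edgeR had 2 mitochondrial ribosome genes higher and 7 lower, and 5 initiation or elongation genes higher and 5 lower. It also had 2 control genes higher. Over all genes tested the shares at that threshold were 5.82% higher and 11% lower. DESeq2 called 1 initiation or elongation gene higher (1.22% of all genes). The medians with SIS3 were 0.08 (TOP messages), 0.23 (biogenesis), -0.36 (mitochondrial ribosome), -0.03 (initiation and elongation) and -0.01 (control).

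Markers of other cell types also differed between these libraries. The sums of the dental mesenchyme, erythroid and neural markers were each lowest at E13.5, as was the share of the members. Single markers went the other way from E12.5 DMSO to E13.5: Hbb-bt (27.8 to 45.8 CPM), Sox10 (1.7 to 3.4 CPM) and Elavl4 (2.2 to 2.7 CPM). The other markers of these lists were lower. The sum of the epithelial markers was lowest with SB431542 and unequal between the SIS3 libraries. The 5 endothelial markers (Kdr, Cdh5, Pecam1, Tek and Flt1) summed to 332.8 CPM in E12.5 DMSO, 392.3 CPM with SB431542, 34.2 and 29.6 CPM with SIS3 and 339.6 CPM at E13.5, and all 5 were called lower with SIS3. The 5 macrophage markers summed to between 25.6 and 44.6 CPM in the SMARTer libraries and to 3.67 and 3.18 CPM with SIS3, with C1qa at 0 in library 1 and C1qb in library 2. The 5 erythroid markers summed to 445.8 CPM in E12.5 DMSO, 511.3 CPM with SB431542, 821.6 and 382.8 CPM with SIS3 and 139.7 CPM at E13.5. The 4 skeletal muscle markers summed to 96.2 CPM in E12.5 DMSO, 88.9 CPM with SB431542, 40.5 and 34.2 CPM with SIS3 and 45.3 CPM at E13.5, where Myod1 was at 0, and the 4 neural markers to between 19.8 and 28.9 CPM, with Sox10 at 0 in SIS3 library 1. The part of these cells in the values of the members was not tested.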

How the data were processed

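Cultured molar tooth germs of mouse embryos were profiled by RNA-seq in 8 columns and 4 groups. The authors deposited estimated counts, unscaled whole numbers for each gene. The submitters' processing notes list DESeq2, deepTools, HISAT2, Salmon and SAMtools, with no role for any of them, and name mm10 as the build. Annotation and counting settings are not given in the labels, and how reads shared by copies were divided is not stated. Per the labels' protocols total RNA was used.

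Members were matched to GENCODE M21 for type, position and length (all 89) and to the RefSeq promoter table (64). Rows whose 31-base words lay to at least 50% in a member were treated as copies. CPM is counts scaled to a total of 1000000 per library. Tests used edgeR 4.0.16 in R 4.3.3 (quasi-likelihood, robust, TMM, filterByExpr) over the 5 libraries in 1 model, with 1 residual and 12.49 prior degrees of freedom, a biological coefficient of variation of 0.293, and Benjamini-Hochberg adjustment over 19022 genes at 0.05. The code was tested on simulated data. The labels do not tie replicate numbers to a shared litter or day, so they were not used to pair samples. Alternatives included DESeq2 1.42.0, other normalisations and filters, all 8 columns as replicates, columns left out, and copies summed.

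The members and lists were chosen with earlier results of these data known. Members were named where called, among the 8 highest or lowest, diverged paralogs, stalk genes or at 0 in a library. Genes of the other lists were named where called, and Fau and Rack1 were added after their values were seen. Values of a few single genes are not reported here. Summing copies by sequence, the classes of coding length and the split by tract were chosen after seeing the data.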

Additional observations from a re-analysis of the deposited data

How the results depend on the processing

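With the 8 columns taken as replicates, 4 members were called lower with SB431542 (0.924% of all genes), 36 higher (17.8%) and 28 lower (20.3%) with SIS3, and 5 higher (29.6%) and 68 lower (25.3%) at E13.5. With the replicate block the counts were 0 with SB431542 (0.361% lower), 33 (16%) and 27 (18.9%) for SIS3 and 5 (28.2%) and 68 (24%) at E13.5. The 5-library fit called 0, 0 and 5, and 0 and 12. Called higher with SIS3 were 2 members under DESeq2 or without a count filter, and 1 under RLE, library totals or length and GC correction. Called lower with SIS3 were 9 without a filter, 3 with length and GC correction, with the libraries of both groups only or without predicted genes, pseudogenes and receptors, 2 with a mean of at least 5 CPM or with named copies summed, and 1 with copies by sequence summed. At E13.5, 1 was called higher under RLE or without a filter. Called lower there were 21 without a filter, 5 with length and GC correction or copies by sequence, 4 with named copies, 3 with a mean of at least 5 CPM or without predicted genes, and 7 to 10 with a column left out (7 without E13.5 DMSO replicate 2, against 12). Over these alternatives of the 5-library fit, edgeR and DESeq2 called between 0.0918% and 2.19% of all genes lower and 0.17% to 5.29% higher at E13.5, and 0.859% to 3.92% lower and 0.194% to 1.22% higher with SIS3. The cause of these differences was not tested. With copies summed, the counts of copies were added to those of the member.

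The median for SB431542 was -0.049 with length and GC correction and -0.079 with library totals. For SIS3 it was 0.19 under DESeq2 and RLE, 0.31 with length and GC correction, 0.22 with library totals, 0.074 without a filter, 0.20 without predicted genes and 0.094 to 0.17 with a column left out. At E13.5 it was -0.62 under DESeq2 and RLE, -0.51 and -0.52 with copies by sequence or by name, -0.42 with length and GC correction, -0.58 with at least 5 CPM, -0.70 without a filter and -0.60 without predicted genes. With SIS3, Rps27 reversed to 0.19 and Rpl10 to 0.16 with copies summed by name or by sequence. Rps21 and Rps28 were called lower at E13.5 in all 17 alternatives with a test, and Rps3a3 with SIS3 in all 18. As a member, Rps3a3 was not summed into another gene in any of them.

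The share of counts in members was 4.43%, 4.13%, 4.54%, 5.13% and 3.25% with copies by sequence (E12.5 DMSO, SB431542, SIS3 libraries 1 and 2, E13.5), 4.203%, 3.92%, 4.31%, 4.82% and 2.98% with named copies, and 4.23%, 3.97%, 4.22%, 4.68% and 3.05% with the reduced total. It was 3.67% to 3.69% with either SB431542 column left out. Leaving out a SIS3 column leaves no residual degree of freedom, so those alternatives give values without a test for every comparison. Each group but SIS3 has 1 library. Leaving out 1 column of a summed pair lowered the depth of that library. Fewer genes then passed the count filter, 17616 to 18830 against 19022, so depth did not change alone. What depth limits was not tested beyond these alternatives.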
